A study of Mus musculus with 8 samples.

Results

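Glycolysis is the cytosolic route that splits glucose into pyruvate with a gain of ATP, and lactate dehydrogenase then turns pyruvate into lactate. Many of its enzymes, together with genes for angiogenesis, pH control, mitophagy and collagen hydroxylation, are transcribed under the hypoxia-inducible factors (HIFs). These are heterodimers of an oxygen-labile alpha subunit, encoded by Hif1a or Epas1, and a stable partner, encoded by Arnt. Prolyl hydroxylases of the Egln family mark the alpha subunit for degradation through VHL when oxygen is present, and several of them are HIF targets themselves. In liver, fetal and proliferating cells rely on the glycolytic isoforms, whereas mature hepatocytes carry out gluconeogenesis.

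The genes described here are 36 glycolytic and HIF-pathway genes listed by symbol, of which 35 were rows of the deposited table of 18671 genes. Ldhb was the listed gene without a row. BMEL cells are a bipotential line from embryonic mouse liver, grown on collagen with serum, IGFII, EGF and insulin. RNA was taken 48 h after transient transfection from 4 samples that received the GRHL2 plasmid and 4 that received the pcDNA3 control vector, numbered 1 to 4 in each group. The GRHL2 plasmid drives the human GRHL2 cDNA, fused to a Flag tag, from the EEF1A1 promoter and also encodes enhanced green fluorescent protein, so GRHL2 itself is not the only feature by which the plasmids differ. The cells were harvested as a whole culture, and a change per cell cannot be told apart from a change in the share of cells that express a gene. The labels give no oxygen tension, glucose use or lactate output for these samples.

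The values are log2 values per transcript length, which allows levels to be compared between genes, and the read depth of the samples is unknown. Mouse Grhl2 averaged 4.53 ± 0.124 (SD, n = 4) with pcDNA3 and 6.24 ± 0.549 (SD, n = 4) with GRHL2 (adjusted p = 0.001, limma), but how much of this came from reads of the human cDNA was not tested. The liver and biliary markers Krt8, Krt18, Krt19, Hnf4a and Afp were all above the middle of the table, and Alb was at 5.08 to 5.49. Some markers of this list differed with the plasmid by limma: the epithelial adhesion gene Epcam rose by 1.748 (adjusted p = 4.59e-07) and Krt7 by 0.441 (adjusted p = 0.00201), and Afp fell by 0.212 (adjusted p = 0.0124). The part of these shifts in the glycolysis and hypoxia results was not tested. Of the immune and endothelial markers, Ptprc and Cdh5 were at 1.30 or below in every sample, Kdr was at 2.25 to 2.59, Pecam1 at 3.20 to 3.36, and the macrophage marker Cd68 at 6.01 to 6.32. None of these 5 was called by limma, while 2 were higher and 1 lower at an unadjusted p under 0.05. Cd68 and Kdr were called higher with a replicate block (adjusted p = 0.0205 and 0.0411, limma), and their part was likewise not tested. Same-numbered samples of the groups deviated together from their group means (Pearson's r across genes 0.474 to 0.645 for the 4 pairs), as did samples 1 with 2 and 3 with 4 across the groups (0.344 to 0.602). For the genes described below, the fit with the replicate number as a block is given beside the fit without it where it changed a call.

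Part of the glycolytic genes and of the HIF targets were higher in GRHL2 samples, by modest amounts. How many passed the test depended on whether the replicate number was in the model and on which samples were used. By limma at an adjusted p under 0.05, 13 of the 35 genes were called higher and 1 lower, against 10.5% and 5.91% of all genes tested. With the replicate block, 24 were called higher and 1 lower, against 18.2% and 13.9% of all genes, and the 14 calls made without the block all recurred in the same direction. Without the block, leaving out 1 sample at a time gave 7 to 20 called higher, where 7.1% to 9.9% of all genes were. The 13 genes were Slc2a1, Slc2a3, Hk2, Gpi1, Pfkl, Pgam1, Eno1, Eno2, Ldha, P4ha1, P4ha2, Egln1 and Epas1, and the gene called lower was Arnt. The 11 genes that passed only with the block were Pfkp, Aldoa, Aldoc, Tpi1, Pgk1, Pkm, Pfkfb3, Pfkfb4, Pdk1, Bnip3 and Egln3. Of the 15 enzyme genes between glucose and pyruvate, 6 were called higher without the block and 12 with it. Neither fit called Hk1, Pfkm, Gapdh, Slc16a1, Slc16a3, Vegfa, Car9, Ndrg1, Ankrd37 or Hif1a.

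The median log2 fold change of the 35 genes was 0.194, a 1.14-fold difference, whereas that of all genes was 0.007. In 28 of the 35 genes each GRHL2 sample exceeded the pcDNA3 sample of its own number, which was so for 27.3% of all genes, and in 4 genes each was below it, against 21.3% of all genes. Complete separation was less frequent, with all GRHL2 samples above all pcDNA3 samples for 11 genes (14.3% of all genes) and below for 2 (9.47% of all genes). Only Pdk1, Bnip3 and Pfkl among the 35 had a log2 fold change over 0.5. Higher calls made up 63.9% of all calls, or 75.9% when the upper quartiles of the samples were set equal, a scaling under which 17 of the 35 genes were called higher and 1 lower, against 16.4% and 5.21% of all genes.

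**Figure D1:**
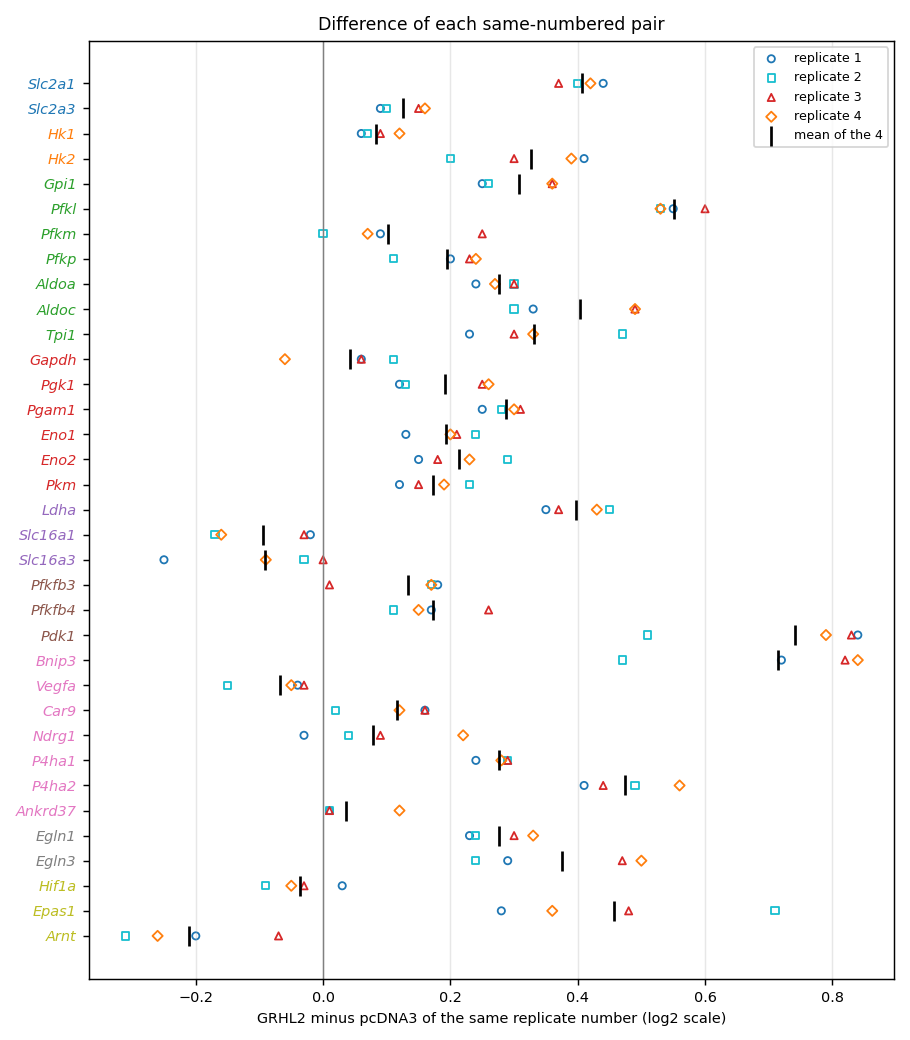
Difference between the GRHL2 and the pcDNA3 sample of the same replicate number for each of the 35 genes, on the log2 scale. Open symbols are the 4 pairs, black bars their mean, and the colour of a gene name gives its role in the order transporters, hexokinases, upper and lower glycolysis, lactate and monocarboxylate genes, flux regulators, hypoxia targets, prolyl hydroxylases and HIF subunits. Most symbols lie to the right of 0, with Pdk1 and Bnip3 farthest, and all 4 symbols of Arnt, Slc16a1 and Vegfa lie to the left.

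Many of these genes are textbook HIF targets, so their promoters were searched for the core of the HIF response element, ACGTG or GCGTG, on both strands, within 300 bases spanning the annotated start (RefSeq, GRCm38.p6). Promoters were available for 32 of the 35 genes, and 23 of these genes, or 71.9%, held ACGTG in at least 1 promoter, compared with 27.4% of the 12883 genes of the deposited table that have a promoter sequence. The gap was smaller for GCGTG, held by 65.6% of these genes against 51.8%. Either core was present in 29 of the 32, or 90.6%, against 63.1%. Per promoter, ACGTG was in 56.5% of the 46 promoters of these genes and in 19.6% of all 32851 promoters of this length. The latter include genes outside the deposited table. Over genes, ACGTG was held by 21.8% of all genes with a promoter, against the 27.4% within the table. The palindrome CACGTG holds the first core on each strand and was counted on both. The 8 bases AACCGGTT, a consensus bound by grainyhead factors, were in none of the 46 promoters and in 0.146% of all promoters. They are so rare that their absence from 46 promoters says nothing about grainyhead binding. Cores did not follow the calls. The genes with a promoter but neither core were Gpi1, Tpi1 and Eno2, each called higher in at least 1 fit. Every gene with a promoter that neither fit called held a core, as did Arnt, which was called lower. A match describes letters in this window and is not evidence of binding.
The sequences below belong to 5 genes that were called higher with or without the block (Slc2a1, Ldha, Pdk1, Bnip3 and P4ha2), to Gpi1, which was called higher and holds no core here, and to Slc16a1, which holds several cores and was not called. Each is written 5′ to 3′ on the strand of its gene, and capitals mark the HIF core on either strand. Their positions are chr4:119108495-119108794 (plus strand), chr7:46845554-46845853 (plus), chr2:71872974-71873273 (plus), chr7:138909457-138909756 (minus), chr11:54100674-54100973 (plus), chr7:34230287-34230586 (minus) and chr3:104638414-104638713 (plus).
Slc2a1: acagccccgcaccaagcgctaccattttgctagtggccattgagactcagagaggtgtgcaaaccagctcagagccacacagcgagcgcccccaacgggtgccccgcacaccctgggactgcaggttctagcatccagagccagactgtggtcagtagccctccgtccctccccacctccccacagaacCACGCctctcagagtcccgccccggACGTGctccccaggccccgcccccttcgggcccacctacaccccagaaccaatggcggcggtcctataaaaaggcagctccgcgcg
Ldha: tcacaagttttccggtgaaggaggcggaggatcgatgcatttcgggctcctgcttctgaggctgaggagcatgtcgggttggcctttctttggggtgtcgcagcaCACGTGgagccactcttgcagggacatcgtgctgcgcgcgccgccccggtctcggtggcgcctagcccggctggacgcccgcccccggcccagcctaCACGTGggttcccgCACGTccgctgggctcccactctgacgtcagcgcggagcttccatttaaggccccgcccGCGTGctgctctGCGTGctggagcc
Pdk1: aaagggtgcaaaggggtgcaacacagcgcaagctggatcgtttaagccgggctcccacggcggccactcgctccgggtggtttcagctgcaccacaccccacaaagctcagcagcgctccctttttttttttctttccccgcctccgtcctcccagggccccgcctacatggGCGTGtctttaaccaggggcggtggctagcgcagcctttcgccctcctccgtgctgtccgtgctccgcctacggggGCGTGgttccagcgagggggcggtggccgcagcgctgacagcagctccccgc
Bnip3: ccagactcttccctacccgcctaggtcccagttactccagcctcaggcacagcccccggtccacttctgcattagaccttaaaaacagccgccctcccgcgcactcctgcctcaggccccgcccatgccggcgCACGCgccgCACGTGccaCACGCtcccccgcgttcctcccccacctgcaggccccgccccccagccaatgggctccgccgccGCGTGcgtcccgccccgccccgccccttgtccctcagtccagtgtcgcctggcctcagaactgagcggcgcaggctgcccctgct
P4ha2: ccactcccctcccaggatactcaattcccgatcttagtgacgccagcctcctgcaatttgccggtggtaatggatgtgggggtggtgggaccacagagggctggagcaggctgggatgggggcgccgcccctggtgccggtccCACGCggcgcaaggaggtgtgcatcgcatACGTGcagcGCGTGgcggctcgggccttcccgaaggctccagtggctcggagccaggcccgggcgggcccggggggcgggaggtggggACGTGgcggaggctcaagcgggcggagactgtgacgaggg
Gpi1: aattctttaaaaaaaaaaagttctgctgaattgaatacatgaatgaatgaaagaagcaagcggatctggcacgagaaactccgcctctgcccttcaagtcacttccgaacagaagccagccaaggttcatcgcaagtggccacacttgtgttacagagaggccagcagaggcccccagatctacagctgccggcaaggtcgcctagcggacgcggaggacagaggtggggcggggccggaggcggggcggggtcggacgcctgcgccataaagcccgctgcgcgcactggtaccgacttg
Slc16a1: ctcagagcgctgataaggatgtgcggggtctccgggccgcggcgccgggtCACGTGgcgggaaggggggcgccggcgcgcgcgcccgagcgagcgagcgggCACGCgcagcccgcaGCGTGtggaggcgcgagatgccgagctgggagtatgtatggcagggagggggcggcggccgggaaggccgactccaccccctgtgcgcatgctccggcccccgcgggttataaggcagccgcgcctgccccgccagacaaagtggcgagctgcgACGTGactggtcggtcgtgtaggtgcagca
The Ldha promoter shown held 5 matches to ACGTG and 2 to GCGTG, and the Bnip3 promoter 2 and 3. The Pdk1 promoter shown had 2 matches, both to GCGTG. Ldha and Pdk1 each have a further annotated promoter, not printed, which for Ldha (chr7:46846832-46847131) held 0 matches to ACGTG and 2 to GCGTG, and for Pdk1 (chr2:71874654-71874953) held neither core.

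Glucose enters cells through facilitative transporters, of which Slc2a1 encodes the widespread form and Slc2a3 a high-affinity form best known from neurons. Slc2a1 measured 10.31, 10.14, 10.41 and 10.39 in replicates 1 to 4 with GRHL2 and 9.87, 9.74, 10.04 and 9.97 with pcDNA3, the order used throughout. All GRHL2 samples were above all pcDNA3 samples, and the pair differences were nearly equal, from 0.37 to 0.44. Slc2a1 rose by 0.407 on this scale, a 1.33-fold difference (standard error 0.0794, adjusted p = 0.00784, limma). Slc2a3 was the lowest of the 35 genes, with values of 2.04, 2.03, 2.07 and 2.08 in GRHL2 samples and of 1.95, 1.93, 1.92 and 1.92 in pcDNA3 samples, and rose by 0.125 on the log2 scale (adjusted p = 0.00202, limma). Its samples did not overlap between groups.

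Hexokinases trap glucose in the cell as glucose phosphate, with Hk1 the constitutive isoform and Hk2 the isoform of growing cells and insulin-sensitive tissue. Hk2 had values of 9.11, 8.97, 9.0 and 9.07 in GRHL2 samples and of 8.70, 8.77, 8.70 and 8.68 in pcDNA3 samples, without overlap. It rose by 0.327 (standard error 0.0482, adjusted p = 0.00187, limma). Hk1 was the more abundant isoform per length, above Hk2 by 2.58 ± 0.106 (SD, n = 4) in pcDNA3 samples and by 2.34 ± 0.107 (SD, n = 4) in GRHL2 samples on the log2 scale. Its own values were 11.32, 11.28, 11.45 and 11.47 in GRHL2 samples and 11.26, 11.21, 11.36 and 11.34 in pcDNA3 samples, so the groups overlapped. The log2 fold change of Hk1 was 0.083, with a 95% confidence interval of -0.05 to 0.21 (adjusted p = 0.366, limma, and 0.0628 with the replicate block).

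**Figure D2:**
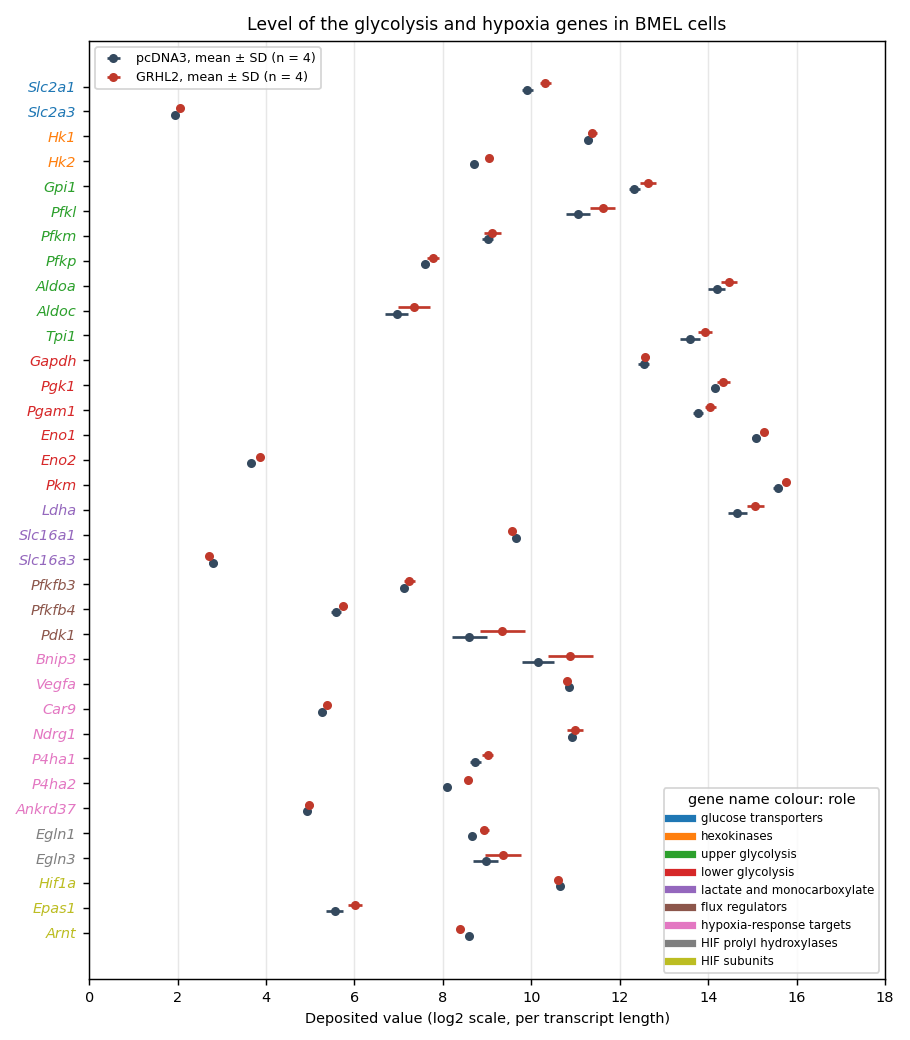
Mean level of each gene in pcDNA3 and GRHL2 samples on the deposited log2 scale per transcript length, with error bars for the SD over 4 samples. Levels span from near 2 (Slc2a3) to above 15 (Pkm, Eno1), and the differences between groups are small beside those between genes.

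The preparatory stage of glycolysis runs from glucose phosphate to the triose phosphates. All 7 of its genes were higher in the GRHL2 sample of each pair, 2 were called higher without the block and 6 with it, where the shares of all genes were 27.3%, 10.5% and 18.2%. Pfkl, which encodes the liver-type phosphofructokinase subunit at the main committed step, had values of 11.46, 11.28, 11.84 and 11.85 in GRHL2 samples and of 10.91, 10.75, 11.24 and 11.32 in pcDNA3 samples. The groups overlapped, because replicates 3 and 4 were higher than replicates 1 and 2 in both, whereas the pair differences were confined to 0.53 to 0.60. The log2 fold change was 0.552, with a standard error of 0.159 without the block (adjusted p = 0.0411, limma) and of 0.0304 with it (adjusted p = 1.37e-05). The muscle-type Pfkm did not pass in either fit, with a log2 fold change of 0.102 (95% confidence interval -0.12 to 0.32, adjusted p = 0.523, limma). The platelet-type Pfkp had 0.194 (adjusted p = 0.0990, limma, and 0.00616 with the block). Among the phosphofructokinase genes, Pfkl lay above Pfkm by 2.04 ± 0.155 (SD, n = 4) in pcDNA3 samples and by 2.49 ± 0.102 (SD, n = 4) in GRHL2 samples on the log2 scale per length, and the ranges of this difference did not overlap.

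Gpi1, glucose phosphate isomerase, had values of 12.57, 12.41, 12.77 and 12.78 in GRHL2 samples and of 12.32, 12.15, 12.41 and 12.42 in pcDNA3 samples, so that GRHL2 replicate 2 lay level with pcDNA3 replicates 3 and 4. Gpi1 rose by 0.307, with an adjusted p of 0.0465 (limma), or 0.000228 with the block. Aldoa encodes the main glycolytic aldolase and Aldoc the isoform of brain, and Aldoa was above Aldoc by 7.24 ± 0.0934 (SD, n = 4) on the log2 scale in pcDNA3 samples. Aldoc had values of 7.13, 6.96, 7.66 and 7.66 in GRHL2 samples and of 6.80, 6.65, 7.17 and 7.18 in pcDNA3 samples, with replicates 3 and 4 again the higher ones in each group. With a log2 fold change of 0.404, its adjusted p (limma) was 0.159 without the block and 0.000398 with it. Aldoa, the most abundant gene of this stage, had values of 14.38, 14.24, 14.64 and 14.60 in GRHL2 samples and of 14.14, 13.94, 14.34 and 14.33 in pcDNA3 samples, which overlapped. For Aldoa and for the triose phosphate isomerase gene Tpi1, the log2 fold changes were 0.277 and 0.332, with adjusted p-values of 0.109 and 0.0652 (limma), or 8.17e-05 and 0.000346 with the block.

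The pay-off stage turns triose phosphates into pyruvate. Of its 6 genes, 3 passed without the block (Pgam1, Eno1 and Eno2), 5 with it, and Gapdh in neither fit, against the same 10.5% and 18.2% of all genes called higher. The phosphoglycerate mutase gene Pgam1 had values of 14.01, 13.89, 14.19 and 14.12 in GRHL2 samples and of 13.76, 13.61, 13.88 and 13.83 in pcDNA3 samples. The lowest GRHL2 sample, replicate 2, was just above the highest pcDNA3 sample. Pgam1 rose by 0.287 (standard error 0.0732, adjusted p = 0.0255, limma). Eno1, the ubiquitous enolase, had values of 15.27, 15.18, 15.35 and 15.29 in GRHL2 samples and of 15.14, 14.95, 15.14 and 15.09 in pcDNA3 samples, and rose by 0.193 (adjusted p = 0.0282, limma). Eno2, the neuronal enolase, had values of 3.79, 3.91, 3.81 and 3.94 against 3.64, 3.62, 3.63 and 3.70, and rose by 0.213 (adjusted p = 0.00619, limma). Both enolase genes had non-overlapping groups, although Eno1 lay above Eno2 by 11.43 ± 0.0880 (SD, n = 4) in pcDNA3 samples on the log2 scale.

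Pkm, pyruvate kinase, had the highest level of the 35 genes in both groups, with values of 15.73, 15.65, 15.80 and 15.80 in GRHL2 samples and of 15.61, 15.42, 15.65 and 15.62 in pcDNA3 samples. GRHL2 replicate 2 fell within the pcDNA3 range. The log2 fold change was 0.173, with an adjusted p of 0.0581 (limma), or 0.000698 with the block. Pgk1, phosphoglycerate kinase, had 0.191 with adjusted p-values of 0.0941 and 0.00169. Gapdh, often used as a reference gene, averaged 12.54 ± 0.131 (SD, n = 4) with pcDNA3 and 12.58 ± 0.0770 (SD, n = 4) with GRHL2. Its difference of 0.042 had a 95% confidence interval of -0.11 to 0.19 (adjusted p = 0.727, limma), and in replicate 4 the GRHL2 sample was the lower of the pair. Several glycolytic genes, Gapdh in particular, have many processed pseudogenes, which makes their values less certain. In the GENCODE M21 annotation, exons of 14 of the 35 genes overlap exons of another annotated gene (Slc2a1, Hk1, Gpi1, Pfkm, Pfkp, Aldoa, Tpi1, Gapdh, Pkm, Bnip3, Car9, Ndrg1, Ankrd37 and Hif1a). Among the overlapping genes that have a value in the table, those at a higher level than the gene they overlap were Pitrm1 (at Pfkp) and Ufsp2 (at Ankrd37).

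Ldha encodes the lactate dehydrogenase subunit that favours lactate formation. Its values were 14.97, 14.84, 15.22 and 15.21 in GRHL2 samples and 14.62, 14.39, 14.86 and 14.78 in pcDNA3 samples. Only GRHL2 replicate 2 lay within the pcDNA3 range, and the pair differences ran from 0.35 to 0.45. Ldha rose by 0.397, a 1.32-fold difference (standard error 0.113, adjusted p = 0.0384, limma, and 2.12e-05 with the block). The monocarboxylate transporters that carry lactate across the membrane were not called in either fit. Slc16a1 had values of 9.60, 9.51, 9.61 and 9.52 in GRHL2 samples and of 9.62, 9.68, 9.64 and 9.68 in pcDNA3 samples. These groups did not overlap, but the log2 fold change of -0.095 did not pass (95% confidence interval -0.19 to 0.00, adjusted p = 0.181, limma, and 0.108 with the block). Slc16a3, the export form typical of glycolytic cells and a known HIF target, was low, with values of 2.69, 2.73, 2.70 and 2.70 against 2.94, 2.75, 2.70 and 2.79, and had an adjusted p of 0.191 (limma). Per length it lay below Slc16a1 by 6.86 on the log2 scale in pcDNA3 samples.

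Among the flux regulators, Pfkfb3 and Pfkfb4 encode bifunctional enzymes that make the allosteric activator of phosphofructokinase. Pdk1 encodes a kinase that inhibits pyruvate dehydrogenase, the complex that uses pyruvate inside mitochondria. Pdk1 had the largest log2 fold change of the 35 genes, at 0.742, a 1.67-fold difference. Its values were 9.13, 8.72, 9.76 and 9.74 in GRHL2 samples and 8.29, 8.21, 8.93 and 8.95 in pcDNA3 samples. Replicates 3 and 4 of the control vector exceeded GRHL2 replicate 2, which left the standard error at 0.254 and the adjusted p at 0.0743 (limma), whereas within pairs the difference was 0.51 to 0.84 and the adjusted p with the block was 6.86e-05. Pfkfb4 had values of 5.74, 5.84, 5.76 and 5.67 against 5.56, 5.73, 5.5 and 5.52, with a log2 fold change of 0.172 (adjusted p = 0.0736, limma, and 0.00997 with the block). Pfkfb3 had values of 7.26, 7.37, 7.07 and 7.27 against 7.08, 7.20, 7.06 and 7.10, and its adjusted p was 0.196 without the block and 0.0413 with it (limma).

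**Figure D3:**
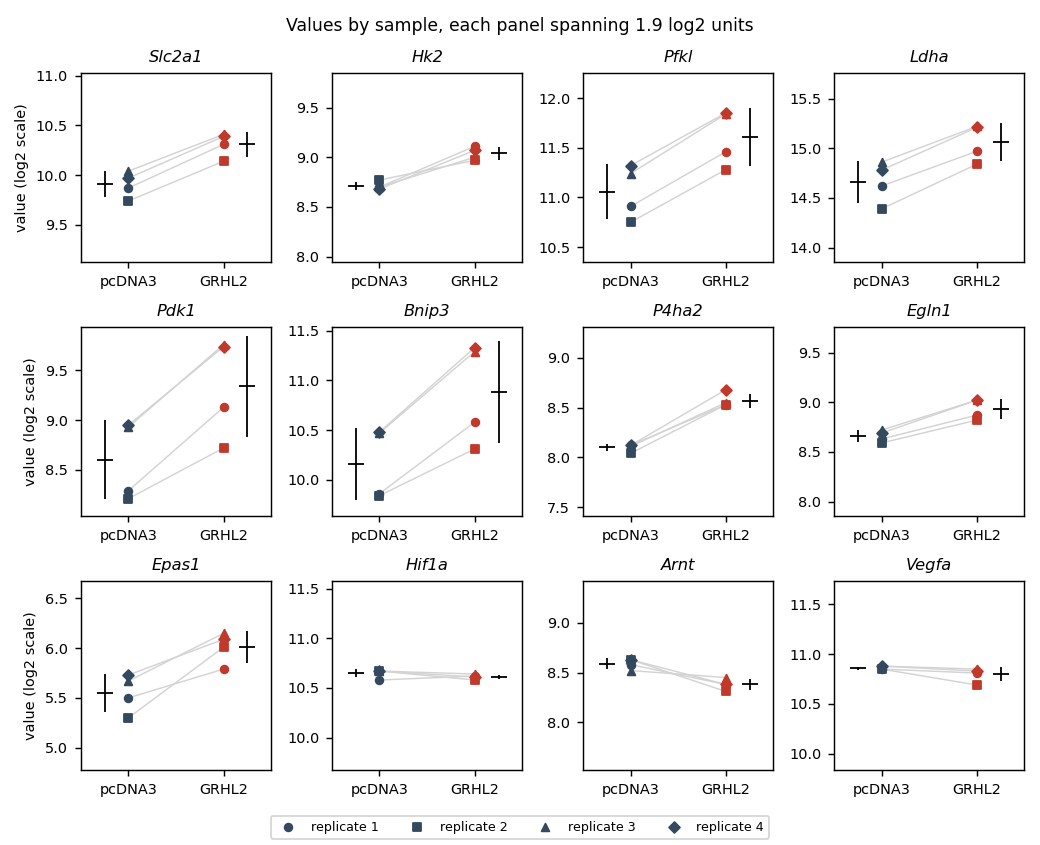
Values of 12 of the genes by sample on the deposited log2 scale, with grey lines joining samples of the same replicate number and black bars for the mean and SD of 4 samples. Pfkl, Ldha, Pdk1 and Bnip3 show parallel lines that start at different levels, Hk2 and P4ha2 show separated groups with little spread, and Hif1a and Vegfa are nearly level.

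The hypoxia-response targets did not move as a unit. P4ha1 and P4ha2 encode the catalytic subunits of collagen prolyl hydroxylase, which stabilises the collagen helix, and both rose. P4ha2 had values of 8.53, 8.53, 8.55 and 8.68 in GRHL2 samples and of 8.12, 8.04, 8.11 and 8.12 in pcDNA3 samples. With this narrow spread it had the lowest adjusted p of the 35 genes in the fit without the block, 0.000329 for a log2 fold change of 0.474 (standard error 0.0489, limma). P4ha1 had values of 8.94, 8.86, 9.11 and 9.12 against 8.70, 8.57, 8.82 and 8.85, also without overlap, and rose by 0.276 (adjusted p = 0.0411, limma). In pcDNA3 samples P4ha1 was above P4ha2 by 0.63 ± 0.0964 (SD, n = 4) on the log2 scale per length, and in GRHL2 samples by 0.44 ± 0.0951 (SD, n = 4).

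Bnip3, a mitochondrial protein that promotes mitophagy, had values of 10.58, 10.31, 11.29 and 11.33 in GRHL2 samples and of 9.86, 9.84, 10.47 and 10.48 in pcDNA3 samples. As for Pdk1, the spread between replicate numbers was as large as the difference between plasmids. For Bnip3 the mean pair difference came to 0.714 on the log2 scale (adjusted p = 0.0769, limma, and 8.5e-05 with the block). Vegfa, the angiogenic growth factor, was high in all samples, with values of 10.81, 10.69, 10.85 and 10.83 in GRHL2 samples and of 10.85, 10.85, 10.88 and 10.88 in pcDNA3 samples. Its log2 fold change was -0.068 (95% confidence interval -0.17 to 0.03, adjusted p = 0.345, limma), and the sign was negative in all 4 pairs. Car9, a membrane carbonic anhydrase that serves as a marker of hypoxic cells, had values of 5.37, 5.37, 5.36 and 5.43 against 5.21, 5.36, 5.20 and 5.31. Its groups did not overlap, by a small margin, but the log2 fold change of 0.116 did not pass (adjusted p = 0.107, limma, and 0.0523 with the block). With equal upper quartiles Car9 was called higher (0.139, adjusted p = 0.0445).
Ndrg1, a stress-responsive gene with high HIF dependence in many cells, had the highest mean of these targets in both groups, with values of 10.77, 10.93, 11.05 and 11.21 in GRHL2 samples and of 10.80, 10.89, 10.96 and 10.99 in pcDNA3 samples. The groups overlapped, and the log2 fold change was 0.078 (95% confidence interval -0.12 to 0.27, adjusted p = 0.590, limma). Ankrd37 was at 4.97 ± 0.0907 (SD, n = 4) against 4.93 ± 0.0375 (SD, n = 4), with an adjusted p of 0.660 (limma).

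Of the genes for prolyl hydroxylases that restrain the HIF alpha subunits, Egln1 was called higher in both fits, Egln3 with the block, and Egln2, read from the list of HIF regulators, in neither (log2 fold change 0.033, adjusted p = 0.763, limma, and 0.62 with the block). Egln1, the main oxygen sensor of most cells, had values of 8.87, 8.82, 9.02 and 9.02 in GRHL2 samples and of 8.63, 8.59, 8.72 and 8.69 in pcDNA3 samples. It rose by 0.276 without overlap of the groups (standard error 0.0597, adjusted p = 0.0126, limma). Egln3, the more strongly hypoxia-inducible paralog, had values of 9.21, 8.84, 9.65 and 9.70 against 8.91, 8.60, 9.18 and 9.20. Its pair differences were 0.24 to 0.50, and the log2 fold change of 0.375 passed only with the block (adjusted p = 0.226 without it and 0.000853 with it, limma).

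The HIF subunits themselves went separate ways. Hif1a had values of 10.62, 10.58, 10.64 and 10.61 in GRHL2 samples and of 10.58, 10.67, 10.67 and 10.67 in pcDNA3 samples. Its log2 fold change was -0.036, with a 95% confidence interval of -0.13 to 0.06 (adjusted p = 0.600, limma). Epas1, which encodes the other alpha subunit, had values of 5.79, 6.01, 6.15 and 6.09 against 5.5, 5.30, 5.67 and 5.73. All GRHL2 samples were above all pcDNA3 samples, and Epas1 rose by 0.457, a 1.37-fold difference (standard error 0.103, adjusted p = 0.0148, limma). Hif1a nevertheless stayed above Epas1 by 4.60 ± 0.156 (SD, n = 4) on the log2 scale per length in GRHL2 samples, against 5.10 ± 0.191 (SD, n = 4) in pcDNA3 samples. Arnt, the shared partner, had values of 8.38, 8.31, 8.45 and 8.38 in GRHL2 samples and of 8.58, 8.63, 8.52 and 8.63 in pcDNA3 samples. It fell by 0.21 without overlap of the groups (standard error 0.0483, adjusted p = 0.0162, limma). HIF activity depends on the stability of the alpha proteins, which RNA values do not show.

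Which genes carried the call differed in firmness. Slc2a1, Slc2a3, Hk2, Eno2, P4ha2, Egln1, Epas1 and Arnt were called with any 1 of the 8 samples left out. Slc2a3 and Eno2 among them were low, averaging 1.99 and 3.75 over all samples. The other called genes depended on several samples. Gpi1 was called only without GRHL2 replicate 2 (adjusted p 0.0141 to 0.117 over the 8 omissions). Pfkl (0.0201 to 0.112) and P4ha1 (0.0264 to 0.105) were called only without GRHL2 replicate 2 or pcDNA3 replicate 4, and Ldha (0.0216 to 0.0984) only without these or pcDNA3 replicate 3. Pgam1 (0.0114 to 0.0671) lost its call without GRHL2 replicate 3 or 4 or pcDNA3 replicate 1 or 2, and Eno1 (0.0204 to 0.0774) without GRHL2 replicate 1, 3 or 4 or pcDNA3 replicate 4. Conversely, without GRHL2 replicate 2 20 of the 35 genes were called higher, against 9.9% of all genes, and these included Pfkp, Aldoa, Tpi1, Pgk1, Pkm, Pdk1 and Bnip3, with adjusted p-values from 0.0224 for Pdk1 to 0.0476 for Aldoa. Without pcDNA3 replicate 2, Pfkfb4 passed (adjusted p = 0.0199, limma).

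Much of the spread within groups lay between replicate numbers, and it was shared by the groups. In 23 of the 35 genes, replicates 3 and 4 were both above replicates 1 and 2 in pcDNA3 samples as well as in GRHL2 samples, a pattern found in 13.4% of all genes. Taking replicates 3 and 4 minus replicates 1 and 2, the median was 0.16 over the 35 genes and -0.008 over all genes. It was largest for Pdk1 (0.76), Bnip3 (0.75), Aldoc and Egln3 (0.54 each) and Pfkl (0.47). Hk2 (-0.03), P4ha2 (0.06), Eno2 (0.03) and Vegfa (0.06) differed little between the numbers. Across the 35 genes, those with a larger difference between replicate numbers also had a larger difference between plasmids (Pearson's r 0.75, Spearman's rho 0.66, computed across genes that come from the same 8 samples), and across the 18636 other genes Pearson's r was 0.27. Neither labels nor methods name a batch, culture density or oxygen level for the numbers, and what sets them apart was not tested. Within replicates 1 and 2 the median log2 fold change of the 35 genes was 0.18, and within replicates 3 and 4 it was 0.24.

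**Figure D4:**
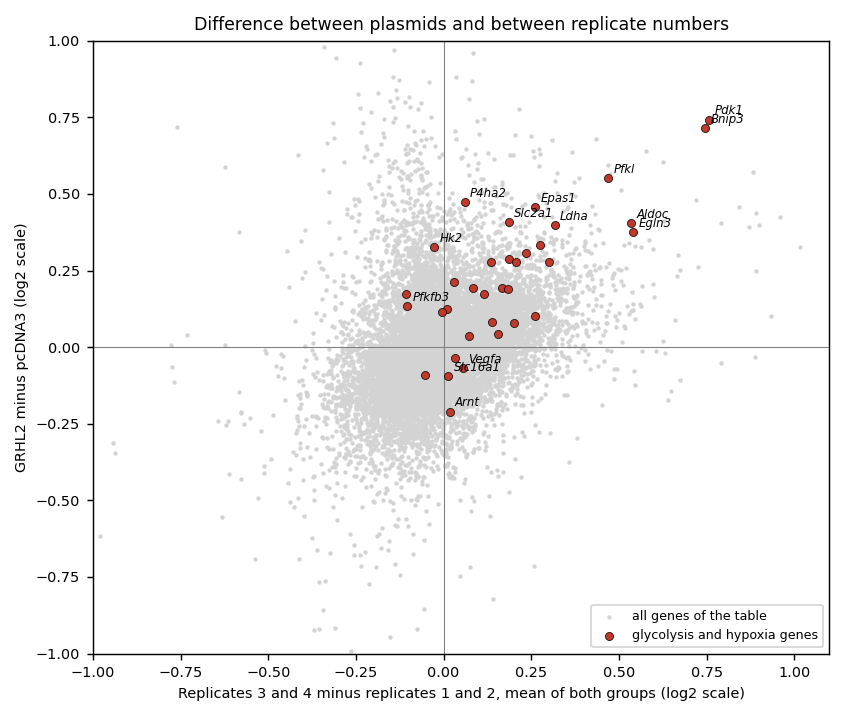
Difference between plasmids (vertical) against replicates 3 and 4 minus replicates 1 and 2, averaged over both groups (horizontal), both on the log2 scale. Grey points are all genes of the table, of which 43 fall outside the plotted range, and red points are the 35 glycolysis and hypoxia genes. Pdk1, Bnip3, Aldoc, Egln3 and Pfkl lie far to the right, whereas P4ha2 and Hk2 are raised with little difference between replicate numbers.

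Genes of neighbouring pathways were read from 5 further lists, to be set against the 10.5% of all genes called higher and 5.91% called lower (18.2% and 13.9% with the replicate block). Nothing is read from them about a list as a whole. Of 32 further HIF targets, 5 were called higher and 3 lower by limma (11 and 4 with the replicate block), with a median log2 fold change of 0.05. Ak4, a mitochondrial adenylate kinase, had values of 7.66, 7.57, 7.95 and 7.90 in GRHL2 samples and of 7.07, 6.94, 7.23 and 7.24 in pcDNA3 samples, and rose by 0.648 (adjusted p = 0.00214, limma). Mxi1, a MYC antagonist, rose by 0.444 (adjusted p = 0.00498). Hmox1, heme oxygenase, which also answers to oxidative stress, went the other way with values of 9.74, 9.69, 9.36 and 9.55 against 10.68, 10.74, 10.45 and 10.44. It fell by 0.991 on the log2 scale (adjusted p = 0.000248, limma), the largest change in these lists. None of the 12 HIF regulators was called higher in either fit, and 2 were called lower, the coactivator gene Ep300 (log2 fold change -0.302, adjusted p = 0.0285, limma) and the VHL-complex scaffold gene Cul2 (-0.146, adjusted p = 0.0469). Ep300 lost its call without GRHL2 replicate 1, 3 or 4 or pcDNA3 replicate 1 (adjusted p up to 0.0779), and Cul2 with equal upper quartiles (0.0693), with equal linear sums (0.0797) and on omission of any sample but pcDNA3 replicate 4 (up to 0.119). At an unadjusted p under 0.05 the counts for these 12 genes were likewise 0 higher and 2 lower, and their median log2 fold change was -0.089.

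The pentose phosphate pathway branches off at glucose phosphate and makes NADPH and ribose. Of its 7 genes, 2 were called higher (3 with the block) and none lower by limma, nor was any lower at an unadjusted p under 0.05. Of all genes, 10.5% were called higher and 5.91% lower (18.2% and 13.9% with the block). G6pdx, the rate-limiting dehydrogenase of this pathway, had values of 10.77, 10.73, 10.64 and 10.68 in GRHL2 samples and of 10.10, 9.78, 10.24 and 10.19 in pcDNA3 samples. It rose by 0.629, a 1.55-fold difference (standard error 0.0900, adjusted p = 0.00162, limma). Taldo1, transaldolase, rose by 0.176 (adjusted p = 0.0496, limma). Of the 15 measured genes of liver isoforms and gluconeogenesis, 4 were higher and 1 lower at an unadjusted p under 0.05. By limma 3 were called higher and none lower (6 and 1 with the block), against the same shares of all genes. These 3 were Pcx, pyruvate carboxylase (log2 fold change 0.306, adjusted p = 0.0259, limma), and the glucose transporter genes Slc2a4 (0.156, adjusted p = 0.00379) and Slc2a2 (0.140, adjusted p = 0.0142). A further list held 12 genes for pyruvate entry into mitochondria and for pyruvate dehydrogenase and its regulators. Of these, 1 was called higher and 2 lower (3 and 3 with the block), against the same shares of all genes. Pdk3, another pyruvate dehydrogenase kinase, rose by 0.257 (adjusted p = 0.0241, limma), and Dld and Pdhx, which encode subunits of the pyruvate dehydrogenase complex, had log2 fold changes of -0.276 and -0.156 (adjusted p = 0.0116 and 0.0451, limma). G6pdx, Slc2a4, Slc2a2 and Dld were called under all 13 alternatives, although Slc2a4 and Slc2a2 were low, averaging 3.01 and 3.14 over all samples. Pdhx lost its call with equal upper quartiles (adjusted p = 0.0611), with equal linear sums (0.0824) and on omission of any sample but pcDNA3 replicate 3 (up to 0.121). Taldo1 lost it on omission of any sample but pcDNA3 replicate 3 (up to 0.123), Pcx without GRHL2 replicate 3 or 4 or pcDNA3 replicate 1 or 2 (up to 0.079), and Pdk3 without GRHL2 replicate 1 or 3 or pcDNA3 replicate 1 (up to 0.0643).

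**Figure D5:**
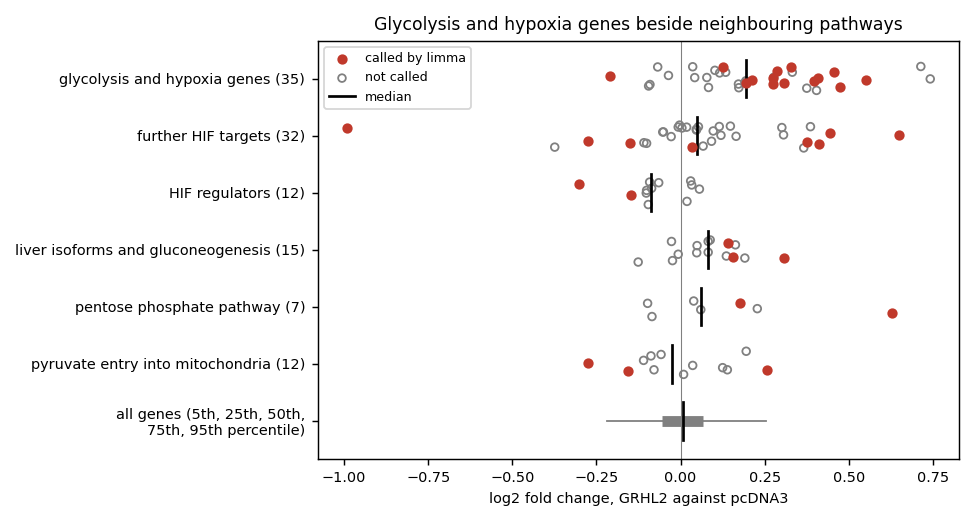
Log2 fold change of GRHL2 against pcDNA3 samples for the 35 genes and for 5 neighbouring lists, with the number of measured genes in parentheses. Filled points passed the limma test without the replicate block, black bars are medians, and the bottom line gives all genes, as a thin line between outer percentiles and a thick bar for the interquartile range. The median of the 35 genes lies at 0.194 and those of the other lists between -0.089 and 0.082.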

How the data were processed

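Total RNA libraries of BMEL cells were sequenced in paired ends, 4 per plasmid, which the study calls independent biological replicates. By the submitters' processing notes, the authors used HISAT2 2.2.1, HTSeq 0.9.1 and DESeq2 1.40.2, with both mm10 and GRCm39 named as builds. The study's methods, in a passage that opens with public data, give other versions of the aligner and of the normalization package, unstranded counting per gene, and rlog values divided by transcript length. The deposited values are named as FPKM but are log2 values, from -2.85 to 18.01, with 4.81% below 0. That log2 length was subtracted is inferred from the values: in 5 groups of genes by length, the lowest values differed by 2.47, and by 0.098 after log2 length was added back. Counts were not used here, so fold changes and spreads are those of the deposited values and need not equal those of counts. The depth behind a value is unknown.

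limma 3.58.1 (R 4.3.3; mean-variance trend) was fitted to the values as deposited for all 18671 genes, with Benjamini-Hochberg adjustment over all of them and a threshold of 0.05. No filter or pseudocount was applied. The fit was tested on simulated data whose samples varied independently, without the shared deviations of replicate numbers described next. Replicate numbers come from the sample titles. Deviations of same-numbered samples correlated at 0.474, 0.565, 0.549 and 0.645 for numbers 1 to 4, so by this measure the numbers were treated as pairs. Samples 1 with 2 (0.344 and 0.436) and 3 with 4 (0.5 and 0.602) of the other group also correlated, and GRHL2 replicate 3 did so more with pcDNA3 replicate 4 than with 3, so the shared structure is largely that of replicates 1 and 2 against 3 and 4. A replicate block was fitted beside the unblocked model. Groups of 4 that do not overlap give an exact two-sided permutation p of 0.0286, the smallest that the 70 splits of 8 samples allow.

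The genes and lists were chosen with earlier results of these data known. All listed genes are accounted for by role, with values in each sample for those called without the block. From each neighbouring list, up to 3 called genes with non-overlapping groups and the largest changes were named. Ero1a was matched by its older symbol. Of the lists, Fbp1 and G6pc, and among markers Col1a2, Col3a1, Adgre1, Clec4f and Lyve1, were not analysed here. Of the markers, 2 of 10 hepatoblast and biliary genes were called higher and 1 lower (5 and 1 with the block), 1 of 5 mesenchymal genes higher and 0 lower (2 and 0), and 0 of 5 immune and endothelial genes in either direction (2 and 0), against 10.5% higher and 5.91% lower of all genes (18.2% and 13.9% with the block). Alternatives were the block, equal upper quartiles, equal linear sums, a mean value of at least 2, no trend, and omission of each sample.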

Additional observations from a re-analysis of the deposited data

Results flagged for a closer look

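Among the 70 sets of 4 samples (35 genes in 2 groups), 4 had a sample that stood far from the rest by Dixon's criterion, where chance gives 3.5. P4ha2 was lowest in pcDNA3 replicate 2, at 8.04 against 8.11 to 8.12 in the others, and highest in GRHL2 replicate 4, at 8.68 against 8.53 to 8.55. Ankrd37 was highest in GRHL2 replicate 4, at 5.10 against 4.91 to 4.93. Hif1a was lowest in pcDNA3 replicate 1, at 10.58 against 10.67 in each of the others. P4ha2 was called higher with any of the 8 samples left out (adjusted p 0.000594 to 0.00206, limma).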

How the results depend on the processing

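With the replicate block, limma called 3396 genes higher and 2589 lower, against 1957 and 1104 without it, and 24 of the 35 glycolysis and hypoxia genes and 23 genes of the neighbouring lists higher, against 13 and 11. It ended no call among the 35 genes. With equal upper quartiles 3064 genes were higher and 972 lower, and with equal linear sums 2912 and 869. Both scalings left 4 of 7 neighbouring-list genes called lower, called 17 and 16 of the 35 genes higher (16.4% and 15.6% of all genes), and moved the median of all genes from 0.00663 to 0.0291 and 0.0307. Without the trend 9 of the 35 were higher (8.82% of all genes), with Gpi1 (adjusted p = 0.0722), Pfkl (0.0716), Ldha (0.0692) and P4ha1 (0.0547) no longer called, and with a mean of at least 2 there were 11 (9.76% of 14872 genes), Slc2a3 falling below that minimum and Eno1 losing its call (0.0523). Omitting 1 sample at a time gave 7 to 20 of the 35 called higher, 1326 to 1848 genes called higher and 690 to 1036 lower, and 7 to 13 and 3 to 7 genes of the neighbouring lists called higher and lower. Arnt was called lower under all of these settings. The uncalled differences changed sign for Gapdh without pcDNA3 replicate 2 (-0.015, range -0.015 to 0.085) and for Ankrd37 without GRHL2 replicate 4 (-0.009, range -0.009 to 0.055). The cause was not tested. The depth behind each value is unknown.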
